A study of Mus musculus with 16 samples.

Results

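The cMyc+prePB and cMyc+early subpopulations of splenic germinal center (GC) B cells were compared by RNA sequencing of sorted cells. The comparison took the 4 libraries that the labels call cMyc+prePB and the 4 that they call cMyc+early, so 8 of the 16 libraries of the series, and was run over 12505 of 51912 genes, those with a mean of at least 10 normalized counts over all 16 libraries. The mice carried the cMyc gfp/gfp reporter, a fusion of GFP to the cMyc protein made from the endogenous locus, on a C57BL/6J background. They were males and females of 6 to 15 weeks, had received 200000000 sheep red blood cells (SRBC) into the peritoneum, and were analyzed 7 d later. CD43-depleted splenic B cells were sorted, RNA was extracted from the sorted cells and low-input libraries were made. The cMyc+prePB gate took CD69hi cells among B220+ CD38low CD95+ cMycGFP+ cells. The cMyc+early gate took CD23hi CD21/35hi cells among the cMyc+ GC B cells that were left after the cMyc+prePB and dark zone (DZ) gates. The other 8 libraries, of the cMyc+lateCD23int and cMyc+lateCD23lo subpopulations, entered the model to estimate the spread between libraries. The labels number the libraries of each subpopulation 1 to 4 and do not say whether these are separate animals or pools, so the p-values measure the spread between libraries, which may be partly technical.

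In the GC reaction, B cells of the light zone (LZ) that obtain help from T follicular helper cells turn on cMyc for a short time and then return to the DZ to divide, or leave as plasmablasts or memory B cells (MBCs). Plasmablasts secrete antibody, a fate driven by BLIMP1, XBP1 and IRF4, while PAX5, BACH2 and BCL6 hold cells in the B cell or GC program. The prePB name stands for a plasmablast precursor, and the comparison sets this candidate precursor beside the cMyc+ LZ cells taken to be the first to have been selected.

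All values below are gene counts that were divided by 1 size factor per library, called normalized counts. Reads per library ranged from 21430755 to 25795815 in cMyc+prePB and from 22630300 to 25153383 in cMyc+early, and a count of 3 reads, used as the floor of detection, was worth 2.48 to 3.22 normalized counts. Correlations of log2 values over genes were 0.844 to 0.889 between cMyc+prePB libraries, 0.856 to 0.903 between cMyc+early libraries and 0.825 to 0.89 between the groups. Differences were tested with limma on log2(normalized count + 1), and a gene was said to rise or fall where the p-value adjusted over the 12505 genes was under 0.05. Fold changes are cMyc+prePB over cMyc+early, and on this scale they understate the change of low genes. In sorted bulk samples, fewer cells with a transcript and less of it in each cell cannot be told apart.

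Few genes passed this test between the subpopulations, and their number depended on the method, as given below. Of the 12505 genes, 24 (0.192%) passed the test, 9 (0.072%) higher and 15 (0.12%) lower in cMyc+prePB. At an unadjusted p under 0.05, 476 genes (3.81%) were higher and 597 (4.77%) lower. The median log2 fold change of all genes was 0.013. Where a mean ± SD of 4 libraries is set against another, cMyc+prePB stands first. Immunoglobulin genes, the cytokine gene Il10 and the costimulatory ligand gene Tnfsf9 were among the genes that rose, and the receptor genes Cd36, Il5ra and Lifr, the repressor gene Bhlhe41 and the scaffold gene Bank1 were among those that fell. The groups did not overlap for any of the 24, so all 24 differed in the same direction at each of the numbers 1 to 4. Of all genes tested, 2.06% were higher and 2.18% lower without overlap, and 8.12% were higher and 8.77% lower at all 4 numbers. The 24 were chosen on these same values, so their lack of overlap is no separate support.

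The number of calls changed when single libraries were left out. Without cMyc+prePB library 1, 2, 3 or 4, limma gave 8, 4, 3 and 5 higher genes and 16, 4, 5 and 3 lower genes. Without cMyc+early library 1, 2, 3 or 4, it gave 3, 10, 5 and 3 higher genes and 1, 4, 2 and 0 lower genes, with 565 lower genes at an unadjusted p under 0.05 in the last of these fits. Igha and Il10 passed in all 8 such fits, Osbpl3 and Cd36 in 5, Gramd1c in 4, Ighg3 and Igkv7-33 in 3, and 16 others in 0 to 2. The edgeR quasi-likelihood test called 4 higher and 4 lower genes, all 8 of them among the 24, and DESeq2 called 61 and 70, among them all 9 higher and 14 of the 15 lower. With only the 8 libraries in the model no gene passed in limma, where Igha was nearest at adjusted p = 0.0605. All 24 kept their direction in each of these fits.

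**Figure D1:**
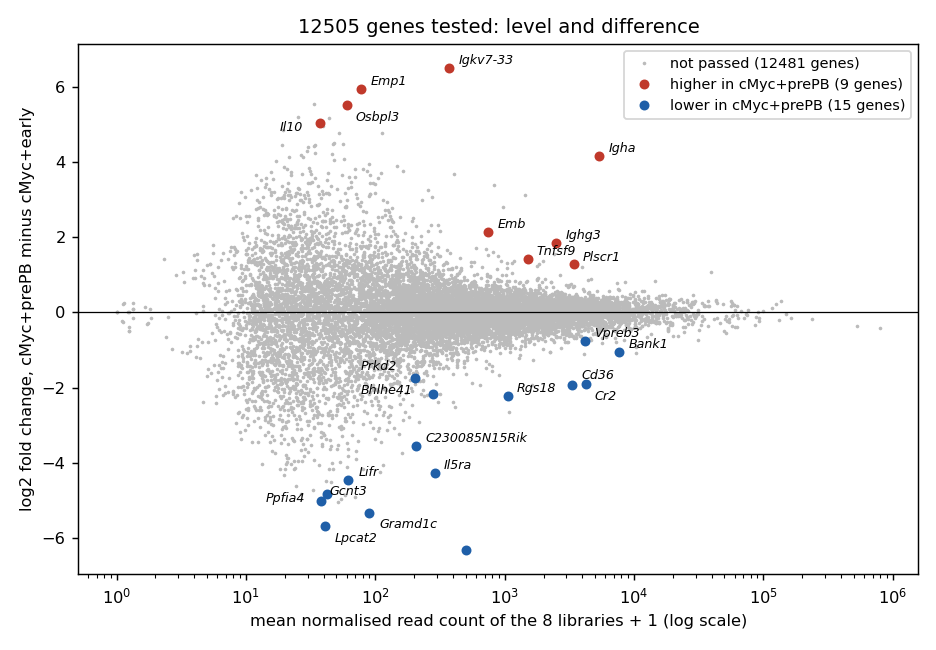
Mean normalized count of the 8 libraries plus 1 (horizontal, log scale) against the log2 fold change of cMyc+prePB over cMyc+early (vertical) for 12505 genes, with the 9 genes that rose in red and the 15 that fell in blue. Igha lay at a log2 fold change of 4.17 and Gramd1c at -5.35, while Vpreb3 passed at -0.75.

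Antibody genes came first among the genes that rose. Igha, the constant region gene of IgA (chr12:113254830-113260236, GRCm38), was at 21278, 2686, 10769.8 and 6557 normalized counts in cMyc+prePB libraries 1 to 4 and at 610.0, 339.8, 508 and 359 in cMyc+early libraries 1 to 4. Every cMyc+prePB library was above every cMyc+early library, with cMyc+prePB library 1 highest (log2 fold change 4.17 ± 0.47 (SE), adjusted p = 0.000567). The log2 fold change was 3.70 without that library. Igha stood at 681 ± 341 (SD, n = 4) in cMyc+lateCD23int and 749.9 ± 189 in cMyc+lateCD23lo, nearer to the cMyc+early level of 454 ± 128. Ighg3 (chr12:113356224-113361232), for IgG3, was at 3363, 5247, 3712 and 3171 in the cMyc+prePB libraries and 815, 1781, 642 and 1315 in the cMyc+early libraries, in library order (log2 fold change 1.85 ± 0.31 (SE), adjusted p = 0.0203). It lost its call without cMyc+prePB library 2 or 3 or without cMyc+early library 1, 3 or 4, while its log2 fold change stayed between 1.61 and 2.10.

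The other heavy chain genes did not pass, although several lay apart. Ighg2c was at 857, 7148, 1814 and 731 in cMyc+prePB and 84.9, 204, 259.9 and 305 in cMyc+early (log2 fold change 3.13 ± 0.74 (SE), adjusted p = 0.129), with no overlap and with cMyc+prePB library 2 far above the others. Ighg2b ranged from 6279.8 to 15948 in cMyc+prePB and 4649 to 5976 in cMyc+early (adjusted p = 0.368), Ighd from 183 to 658 in cMyc+prePB and 498 to 808 in cMyc+early (adjusted p = 0.416), and Ighm from 38272 to 56609 in cMyc+prePB and 50028 to 64145 in cMyc+early (adjusted p = 0.629). Ighg2b did not overlap between the groups, and Ighd and Ighm did. Ighg1 overlapped, at 22332 to 34088 in cMyc+prePB and 21871 to 29635 in cMyc+early, and so did Ighe, where cMyc+prePB library 1 alone reached 4498. Of the 8 constant genes 2 rose (0.072% of all genes did) and 6 had log2 fold changes above 0 (51.2% of all genes did). The median was 0.98 (0.72 to 1.13). A range after the median of a list gives its lowest and highest value when 1 of the 8 libraries was left out, with the library named where it moved the median by over 1.5 times or past 0. Reads on a constant gene come from germline and from switched transcripts alike, and the highly similar IgG genes may share reads.

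Expressed as shares of all heavy chain constant counts, Ighm took 44.6%, 41.4%, 46.2% and 53.6% in cMyc+prePB libraries 1 to 4 and 66.1%, 65.7%, 62% and 63.1% in the cMyc+early libraries. Igha took 18.1%, 2.91%, 9.54% and 6.21% in cMyc+prePB and 0.67%, 0.348%, 0.63% and 0.354% in cMyc+early. Neither share overlapped between the groups. In an exact two-sided permutation test both reached p = 0.0286, the smallest value that 4 against 4 libraries can give, and an adjusted p of 0.0572 over 4 shares. The IgG genes together took 42.6% ± 9.22 (SD, n = 4) and 34% ± 2.01 (exact permutation p = 0.114, adjusted p = 0.114), and Ighd took 0.323% ± 0.163 and 0.749% ± 0.184 (exact permutation p = 0.0571, adjusted p = 0.0761). None of the 4 shares passed the correction.

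**Figure D2:**
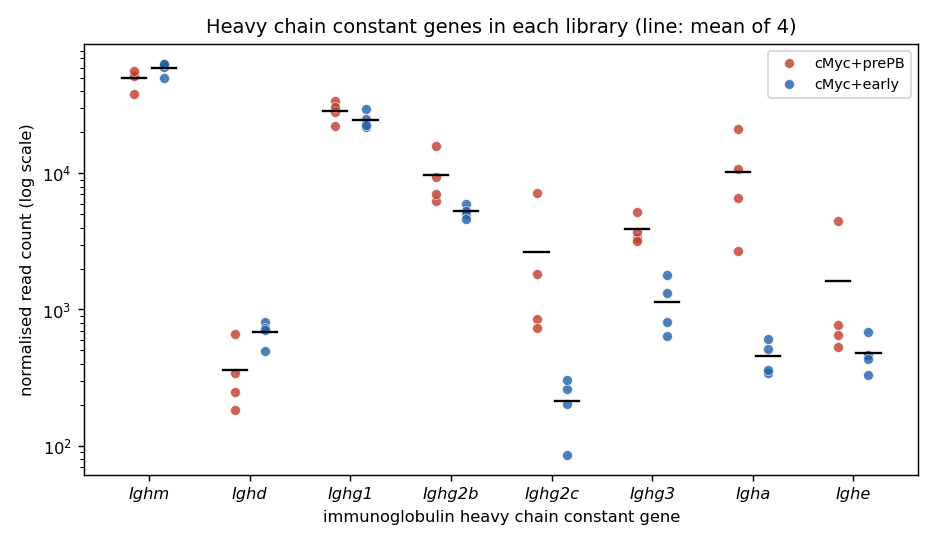
Normalized counts (log scale) of the 8 heavy chain constant genes in each library, cMyc+prePB in red and cMyc+early in blue, with a line at the mean of 4 libraries. Igha, Ighg3, Ighg2b and Ighg2c were higher in every cMyc+prePB library, by the widest margin for Igha (2686 to 21278 against 340 to 610), and Ighm and Ighg1 lay close together.

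Among the light chain variable genes 1 rose. Igkv7-33 (chr6:70058632-70059199), a kappa variable segment, was at 1583, 48.0, 427 and 902 in cMyc+prePB and 4.19, 3.54, 17.3 and 0 in cMyc+early (log2 fold change 6.51 ± 1.10 (SE), adjusted p = 0.0203). It was the 1 kappa variable gene of 102 that passed, and its cMyc+prePB libraries differed widely, with library 2 lowest. Igkv1-110, at 2619.6 ± 725 against 1047 ± 216 (log2 fold change 1.305, adjusted p = 0.0704), and Igkv2-137, at 3707 ± 1980.5 against 1139 ± 295 (log2 fold change 1.55, adjusted p = 0.0892), did not pass. The kappa list was otherwise balanced, with 50 genes above 0 and 52 below and a median of -0.0055 (-0.26 without cMyc+prePB library 1 to 0.16 without cMyc+prePB library 4). None of 80 heavy chain variable genes passed, and their median was 0.23 (0.11 without cMyc+early library 3 to 0.49 without cMyc+early library 4). Variable segments are similar in sequence, so their reads may be split between genes.

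Il10 and Tnfsf9 act between cells. Il10 (chr1:131019845-131024974), a cytokine gene that dampens immune responses and is also expressed by plasma cells, was at 83.8, 112, 50.5 and 39.7 in cMyc+prePB libraries 1 to 4 and at 2.10, 0.885, 1.92 and 0 in the cMyc+early libraries (adjusted p = 0.00429, limma). All cMyc+early libraries were under the floor of 3 reads, and the summed reads differed 60.8-fold (95% interval 25.8 to 188, from 313 and 5 reads), an exact interval that covers counting error only. It was also present in cMyc+lateCD23int (67.2 ± 40.0) and had its highest mean in cMyc+lateCD23lo (149.5 ± 58.1). Tnfsf9 (chr17:57105325-57107757), the ligand of the costimulatory receptor CD137, was at 3400.5, 1755, 2328 and 1384 in cMyc+prePB and at 1108, 734, 716 and 622 in cMyc+early (log2 fold change 1.43 ± 0.28 (SE), adjusted p = 0.045). Its lowest cMyc+prePB value exceeded its highest cMyc+early value by a small margin. The call held in 1 of the 8 fits that left out a library, the one without cMyc+prePB library 4. Tnfsf9 stood at 1251 ± 320 in cMyc+lateCD23int and 1583 ± 454 in cMyc+lateCD23lo.

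Of the 23 genes of T cell help and costimulation, Tnfsf9 was the 1 that passed. The median of the list was -0.082 (-0.19 without cMyc+early library 3 to -0.0065 without cMyc+early library 1). Pdcd1lg2, the gene of a ligand of PD-1, was at 38.5 ± 38.9 against 181 ± 55.2 (log2 fold change -3.45, adjusted p = 0.243), and Tnfrsf13b, the gene of the BAFF and APRIL receptor TACI, at 4748 ± 775 against 6537 ± 659.8 (log2 fold change -0.47, adjusted p = 0.377). Both were lower in every cMyc+prePB library than in any cMyc+early library without passing the test.

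The last 4 genes that rose code for membrane-bound or lipid-handling proteins. Osbpl3 (chr6:50293330-50456201), a lipid transfer protein of the oxysterol-binding family, was at 204, 181, 46.9 and 38.8 in cMyc+prePB and 0, 1.77, 1.92 and 0.903 in cMyc+early (adjusted p = 0.0203), a difference of 97.9-fold (95% interval 41.7 to 303, from 504 and 5 reads). Emp1 (chr6:135362545-135383173), a tetraspan membrane protein, was at 82.8, 55.4, 199 and 272 in cMyc+prePB and 2.10, 0.885, 1.92 and 0 in cMyc+early (adjusted p = 0.045), a difference of 129.5-fold (95% interval 55.2 to 400.0, from 667 and 5 reads). These genes were thus under the floor in every cMyc+early library and well above it in every cMyc+prePB library. Both were also present in the late subpopulations. Osbpl3 stood at 64.5 ± 43.1 in cMyc+lateCD23int and 99.9 ± 81.4 in cMyc+lateCD23lo, and Emp1 at 23.2 ± 21.1 and 27.6 ± 32.8. Emb (chr13:117208536-117274415), the gene of embigin, a partner of monocarboxylate transporters, was at 706, 1264, 1096 and 1839 in cMyc+prePB and 165, 363, 273 and 275 in cMyc+early (log2 fold change 2.16 ± 0.40 (SE), adjusted p = 0.0269). Plscr1 (chr9:92249750-92272278), an interferon-inducible phospholipid scramblase, was at 3283, 4744, 5249 and 6027 in cMyc+prePB and 1841, 3133, 1544 and 1556 in cMyc+early (log2 fold change 1.29 ± 0.23 (SE), adjusted p = 0.0269). Plscr1 was expressed strongly in both groups, and cMyc+early library 2 came close to cMyc+prePB library 1. In cMyc+lateCD23int and cMyc+lateCD23lo, Emb stood at 358 ± 182 and 894 ± 323, and Plscr1 at 1980 ± 244 and 1164 ± 172. The Emp1 call was lost in each of the 8 fits that left out a library, with log2 fold changes of 5.59 to 6.35.

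**Figure D3:**
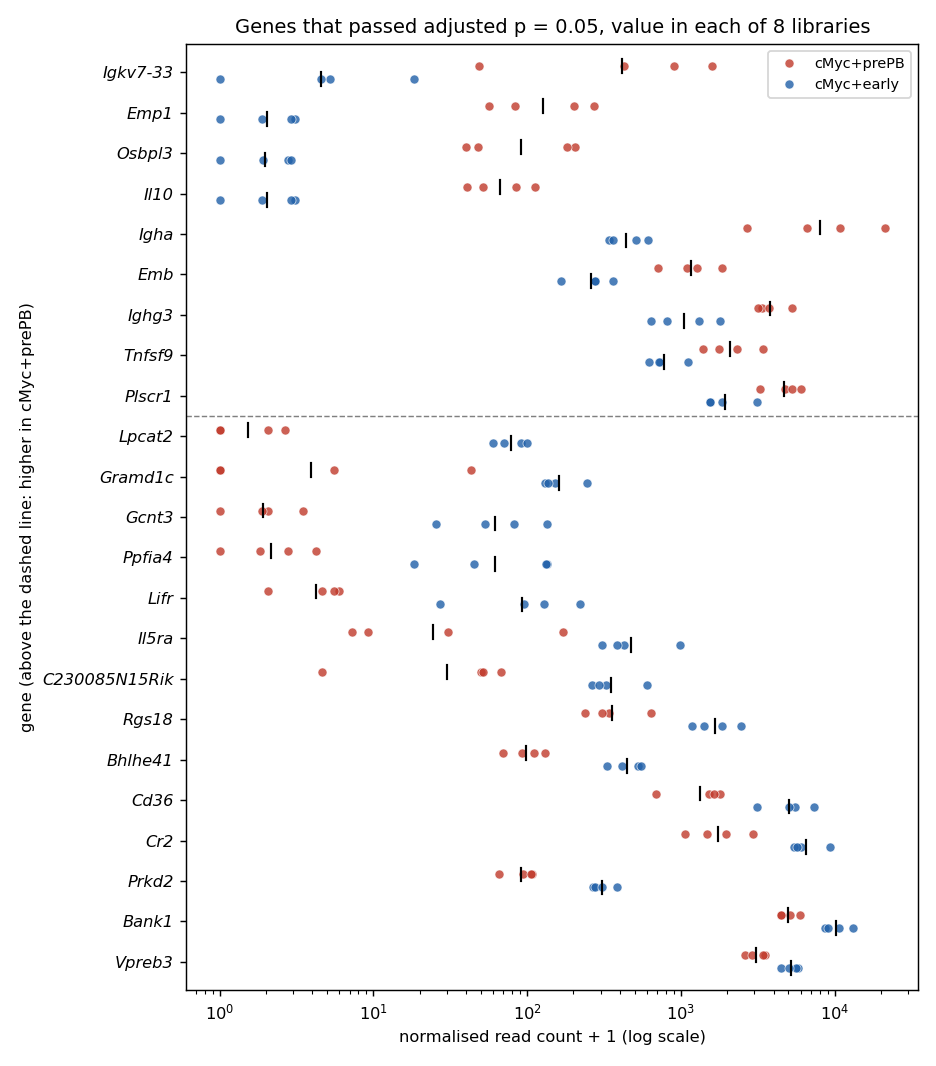
Normalized count plus 1 (log scale) of 23 of the 24 genes that passed, in each cMyc+prePB library (red) and each cMyc+early library (blue), with a line at the geometric mean of 4. None of them overlapped between the groups. Il10, Osbpl3 and Emp1 in cMyc+early and Lpcat2, Gcnt3 and Ppfia4 in cMyc+prePB had 3 reads or fewer in every library.

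Receptors of lipids and complement were among the genes that fell. Cr2 (chr1:195136811-195176716), the gene of the complement receptors CD21/35, was at 2939, 1057, 1472 and 1970.2 in cMyc+prePB and 9349.5, 6079, 5463 and 5659 in cMyc+early (log2 fold change -1.90 ± 0.34 (SE), adjusted p = 0.0269). The cMyc+early gate selected CD21/35hi cells, so the fall of Cr2 cannot be told apart from the gate and is no separate finding. Cr2 stood at 6928 ± 1497 in cMyc+lateCD23int and 4738 ± 2939 in cMyc+lateCD23lo. How far its level follows the gates was not tested. Cd36 (chr5:17781690-17888801), a scavenger receptor for lipids that marginal zone B cells express, was at 1795, 688, 1522 and 1628 in cMyc+prePB and 7307, 3102, 5533 and 5047 in cMyc+early (log2 fold change -1.92 ± 0.31 (SE), adjusted p = 0.0203). It lost its call without cMyc+early library 1, 3 or 4. Cd36 stood at 5700 ± 1746 in cMyc+lateCD23int and 5609 ± 1736 in cMyc+lateCD23lo, near the cMyc+early mean of 5247.

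The genes of a pair of cytokine receptors fell, Il5ra and Lifr. Il5ra (chr6:106710357-106749037), the specific chain of the IL-5 receptor, was at 169.8, 8.27, 29.8 and 6.31 in cMyc+prePB and 982, 426, 306 and 386 in cMyc+early (log2 fold change -4.27 ± 0.77 (SE), adjusted p = 0.0269), with cMyc+prePB library 1 far above the other cMyc+prePB libraries. Without that library the log2 fold change was -5.21. Lifr (chr15:7090614-7197489), the receptor of leukemia inhibitory factor, was at 1.07, 4.96, 4.51 and 3.61 in cMyc+prePB and 26.2, 94.7, 128 and 219 in cMyc+early (log2 fold change -4.46 ± 0.82 (SE), adjusted p = 0.0269), a few reads in each cMyc+prePB library. In cMyc+lateCD23int and cMyc+lateCD23lo, Il5ra stood at 421 ± 186 and 201 ± 141, and Lifr at 176 ± 190 and 11.5 ± 4.96.

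A further 5 genes that fell code for a scaffold, a surrogate light chain relative, a kinase, a regulator of G protein signaling and a transcription factor. Bank1 (chr3:136053363-136326066), a scaffold of B cell receptor (BCR) signaling, was at 5941, 4466, 5155 and 4467 in cMyc+prePB and 13204, 8628, 10626 and 9088 in cMyc+early (log2 fold change -1.04 ± 0.21 (SE), adjusted p = 0.045). Vpreb3 (chr10:75943057-75949657), a relative of the surrogate light chain, was at 3504, 3436, 2623 and 2914 in cMyc+prePB and 5790.4, 4505, 5623 and 5031 in cMyc+early (log2 fold change -0.75 ± 0.15 (SE), adjusted p = 0.045). The replicates of these genes lay close together, and theirs were the smallest fold changes among the 24. Prkd2 (chr7:16842902-16870464), a diacylglycerol-responsive kinase, was at 64.5, 93.4, 107 and 106 in cMyc+prePB and 268, 381, 277 and 304 in cMyc+early (log2 fold change -1.73 ± 0.32 (SE), adjusted p = 0.0269). Rgs18 (chr1:144752683-144775435), a regulator of G protein signaling, was at 638, 238, 342 and 307 in cMyc+prePB and 2458, 1188, 1857 and 1408 in cMyc+early (log2 fold change -2.22 ± 0.43 (SE), adjusted p = 0.045). Bhlhe41 (chr6:145858243-145865558), a transcriptional repressor known from B-1 and memory B cells, was at 68.8, 91.8, 129 and 109 in cMyc+prePB and 526, 328, 410.0 and 551 in cMyc+early (log2 fold change -2.18 ± 0.39 (SE), adjusted p = 0.0269). It reached 159.5 ± 39.4 in cMyc+lateCD23int and 58.5 ± 10.6 in cMyc+lateCD23lo, so that cMyc+early had the highest level. In the same late groups, Bank1 stood at 9559 ± 2969 and 7594 ± 1639 and Vpreb3 at 5232 ± 777 and 6482 ± 541. Prkd2 stood there at 299 ± 34.9 and 224 ± 38.0, and Rgs18 at 1652 ± 884 and 1716 ± 811. For these genes cMyc+prePB had the lowest mean of the subpopulations. In the fits that left out a library, Prkd2 passed in none of 8 and the other genes of this group in 1 each.

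The remaining genes that fell were enzymes and genes of other functions at low counts. Gcnt3 (chr9:70031496-70038088), a branching glycosyltransferase of mucin-type glycans, was at 1.07, 2.48, 0 and 0.902 in cMyc+prePB and 52.4, 81.4, 133 and 24.4 in cMyc+early, a difference of 63.2-fold (95% interval 26.8 to 196, from 307 and 5 reads) with adjusted p = 0.0269. Lpcat2 (chr8:92855339-92919279), a lysophospholipid acyltransferase, was at 1.07, 1.65, 0 and 0 in cMyc+prePB and 70.2, 59.3, 90.5 and 98.4 in cMyc+early, a difference of 116-fold (95% interval 39.3 to 564, from 337 and 3 reads) with adjusted p = 0.0468. Ppfia4 (chr1:134296783-134332928), a scaffold protein of the liprin family, was at 3.22, 0.827, 0 and 1.80 in cMyc+prePB and 134, 44.2, 17.3 and 132 in cMyc+early, a difference of 58.7-fold (95% interval 26.7 to 161, from 342 and 6 reads) with adjusted p = 0.0269. For each of these genes every cMyc+prePB library had 3 reads or fewer. Gramd1c (chr16:43980350-44063345), a sterol transfer protein of the endoplasmic reticulum (ER), was at 0, 42.2, 4.51 and 0 in cMyc+prePB and 244, 150.4, 129.9 and 135 in cMyc+early (log2 fold change -5.35 ± 0.89 (SE), adjusted p = 0.0203), with most of its cMyc+prePB counts in library 2. The edgeR adjusted p of Gramd1c was 0.235, and DESeq2 gave none. C230085N15Rik (chr17:51757295-51761621) was at 49.4, 67.0, 3.61 and 50.5 in cMyc+prePB and 604, 263, 326 and 293 in cMyc+early (log2 fold change -3.55 ± 0.70 (SE), adjusted p = 0.045). In cMyc+lateCD23int and cMyc+lateCD23lo, Gcnt3 stood at 59.8 ± 71.6 and 69.3 ± 50.5, and Ppfia4 at 87.1 ± 33.5 and 74.6 ± 59.3. Gramd1c stood there at 171 ± 18.3 and 121 ± 30.7, and Lpcat2 at 42.0 ± 18.0 and 16.8 ± 19.6. C230085N15Rik stood there at 295 ± 85.1 and 82.4 ± 35.6.

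The upstream sequences of the genes that passed were searched for 4 short motifs, which are known sites of MYC, AP-1 and E protein factors. RefSeq windows of the 250 bases before each listed start were given for 15 of the 24 genes, 4 that rose and 11 that fell, and none was given for genes that included Igha, Il10, Ighg3, Igkv7-33, Tnfsf9, Gcnt3, Rgs18 and C230085N15Rik. CACGTG, the E-box that MYC and MAX bind, stood in windows of Bhlhe41, Gramd1c and Ppfia4, which fell, and of none of the 4 that rose. It stood in 6.02% of 32851 windows and 10.2% of 8618 tested genes. The Ppfia4 window with it, from 134344717, lies outside the gene span given above. The Ppfia4 window from 134332929, directly beside that span, had no CACGTG. The Gramd1c windows with it, from 44016437 and 44027946, lie within the gene span given above, at other listed starts. The AP-1 site TGACTCA stood in Emp1, on the opposite strand, and in Il5ra, against 3.4% of tested genes. The E protein motif CAGGTG stood in Emb and Plscr1 among the genes that rose and in Bank1, Bhlhe41, Cr2 and Lifr among those that fell (17.5% of tested genes), and the E-box CAGCTG in Il5ra, Lifr, Ppfia4 and Prkd2 (13.3% of tested genes). All 4 motifs were read on both strands, and none of them contains another. A match describes these letters and not a bound site. The stretches below, GRCm38.p6, 5′ to 3′ and ending at the base before the start, are shown for the 3 genes with the MYC E-box, for the AP-1 match of Emp1 and for the matches of Emb and Plscr1 nearest to a start, with each motif, or its reverse complement, in capitals.
Bhlhe41, chr6:145865421-145865670, minus strand: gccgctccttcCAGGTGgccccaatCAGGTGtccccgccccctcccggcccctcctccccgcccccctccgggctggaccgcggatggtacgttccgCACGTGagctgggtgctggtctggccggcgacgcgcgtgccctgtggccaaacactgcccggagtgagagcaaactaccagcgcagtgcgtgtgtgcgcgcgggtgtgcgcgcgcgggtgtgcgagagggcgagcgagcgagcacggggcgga
Gramd1c, chr16:44027946-44028045, minus strand: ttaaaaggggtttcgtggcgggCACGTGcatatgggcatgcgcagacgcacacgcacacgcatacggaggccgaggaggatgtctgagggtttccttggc
Ppfia4, chr1:134344717-134344866, minus strand: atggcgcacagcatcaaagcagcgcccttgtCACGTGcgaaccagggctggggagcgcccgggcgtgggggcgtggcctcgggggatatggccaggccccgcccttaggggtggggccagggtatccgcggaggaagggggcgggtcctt
Emp1, chr6:135362781-135362930, plus strand: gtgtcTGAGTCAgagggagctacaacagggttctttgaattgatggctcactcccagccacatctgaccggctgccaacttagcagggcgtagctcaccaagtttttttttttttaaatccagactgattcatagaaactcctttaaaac
Emb, chr13:117220473-117220572, plus strand: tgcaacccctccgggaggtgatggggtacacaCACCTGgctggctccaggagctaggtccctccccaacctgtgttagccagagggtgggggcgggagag
Plscr1, chr9:92250094-92250193, plus strand: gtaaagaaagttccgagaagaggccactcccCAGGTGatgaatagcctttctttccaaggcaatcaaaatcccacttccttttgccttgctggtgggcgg

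The sort itself was checked on the transcripts of the sorted proteins. Fcer2a, the gene of CD23, ranged from 3404 to 11102 in cMyc+prePB and 9454 to 17966 in cMyc+early (adjusted p = 0.545), and cMyc+prePB library 3 reached into the cMyc+early range. Cd69 overlapped throughout, at 2439 to 5346 in cMyc+prePB and 2002 to 4579.9 in cMyc+early (log2 fold change 0.15, adjusted p = 0.961), although the cMyc+prePB gate was set on CD69hi. Myc was at 2300.0, 4165, 4411 and 4417 in cMyc+prePB and 1183, 3503, 1760.3 and 3563 in cMyc+early (log2 fold change 0.71 ± 0.39 (SE), adjusted p = 0.652), so that it was higher in cMyc+prePB at each number without passing, and library 1 was lowest in both groups. Fas (-0.104), Cd38 (-0.36), Cd86 (-0.17), Ptprc (-0.47) and Cxcr4 (0.89) did not pass either, with those log2 fold changes. As B cells, both groups expressed all 8 B cell markers of the list. None of these passed, and 7 of the 8 had log2 fold changes below 0 (48.8% of all genes did). At an unadjusted p under 0.05, 4 were lower (4.77% of all genes), and the median was -0.42 (-0.53 to -0.32). Pax5 was at 2413 ± 460.2 against 3266 ± 347 (log2 fold change -0.45, adjusted p = 0.449), Cd79a at 20920.2 ± 2718 against 27261 ± 3589 (log2 fold change -0.38, adjusted p = 0.462) and Cd22 at 3182 ± 706 against 5282 ± 1763 (log2 fold change -0.70, adjusted p = 0.482).

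Most plasma cell transcription factors had log2 fold changes above 0, none past the test. Of 11, 9 had log2 fold changes above 0 (51.2% of all genes did), and 4 were higher at an unadjusted p under 0.05 (3.81% of all genes). The median was 0.33 (0.15 without cMyc+prePB library 2 to 0.43). Zbtb20 was at 3946 ± 907 against 2341 ± 372 (log2 fold change 0.73, adjusted p = 0.292), Ell2, an elongation factor used for secretory immunoglobulin mRNA, at 1424 ± 223 against 977 ± 178 (log2 fold change 0.55, adjusted p = 0.447), and Xbp1, the activator of the secretory apparatus, at 4819.8 ± 877 against 3599 ± 344 (log2 fold change 0.41, adjusted p = 0.455). Prdm1 and Irf4 are named here after their values were seen. Prdm1, the gene of BLIMP1, was at 6.45, 119, 9.02 and 6.31 in cMyc+prePB and 2.10, 7.96, 0 and 0.903 in cMyc+early (adjusted p = 0.52), under 10 normalized counts in all libraries but cMyc+prePB library 2. Irf4 overlapped, at 505 to 968 in cMyc+prePB and 529 to 906 in cMyc+early (log2 fold change -0.0079).

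For secretion genes the split was less one-sided. Over all genes tested, 51.2% were above 0, and 3.81% were higher and 4.77% lower at an unadjusted p under 0.05. Among 19 plasma cell surface and secretion genes none passed, 12 were above 0 and the median was 0.24 (0.12 without cMyc+prePB library 2 to 0.33). At an unadjusted p under 0.05, 3 were higher and 2 lower. The lower ones were Tnfrsf13b (log2 fold change -0.47, with no overlap) and Cd93, at 10.9 ± 12.9 against 48.8 ± 37.6 (log2 fold change -2.90, adjusted p = 0.532), which is named after its values were seen. Jchain, which joins IgA and IgM into polymers, was at 104886, 31885, 43640.1 and 41362 in cMyc+prePB and 25889.6, 18862, 25959.6 and 23781 in cMyc+early (log2 fold change 1.08 ± 0.29 (SE), adjusted p = 0.194), with no overlap and with cMyc+prePB library 1 highest, as it was for Igha. Ly6k was at 497 ± 149 against 284 ± 93.3 (log2 fold change 0.80, adjusted p = 0.51). Of 31 ER folding and secretion genes, 19 were above 0 and 4 had an unadjusted p under 0.05 in that direction and 0 in the other, with a median of 0.102 (0.052 without cMyc+prePB library 2 to 0.14). Creld2 was at 3832 ± 908 against 2353 ± 238 (log2 fold change 0.68, adjusted p = 0.243), Dnajc3 at 2885 ± 425 against 1847 ± 469 (log2 fold change 0.67, adjusted p = 0.243), both co-factors of ER folding, and Sec61g, a subunit of the translocon, at 522 ± 40.3 against 297 ± 113 (log2 fold change 0.88, adjusted p = 0.357). For each of the 3 every cMyc+prePB library lay above every cMyc+early library.

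Follicular B cell markers mostly had log2 fold changes below 0, and MBC-associated genes were split more evenly in direction. Of 20 MBC-associated genes, 2 fell, Bhlhe41 among them, 18 did not pass, and 7 had an unadjusted p under 0.05, all of them lower. Over all genes tested, 0.12% fell and 4.77% were lower at that unadjusted p. The list had 8 genes above 0 and 12 below (60%, against 48.8% of all genes), with a median of -0.35 (-0.51 to -0.36). Pecam1, an adhesion molecule, was at 468 ± 248 against 1130.4 ± 159 (log2 fold change -1.42, adjusted p = 0.0865). Among 11 follicular B cell markers 1 fell, 10 had log2 fold changes below 0, 7 had an unadjusted p under 0.05 and the median was -0.91 (-1.12 to -0.71), and Fcer2a, a sorted marker, belongs to this list. Their summed level was 18364 to 23627 in cMyc+prePB and 27116 to 36808 in cMyc+early. Among 10 marginal zone B cell markers Cr2 fell, and their summed level was 8549 to 12472 against 13393 to 18437, to which the sorted Cr2 contributes. The summed levels did not overlap between the groups for either list, but each sum holds a sorted gene. Mean Cr2 was 1860 against 6638, beside median marginal zone sums of 10140 against 15660. Mean Fcer2a was 7457 against 13398, beside median follicular sums of 18985 against 32803. With each gene weighted equally on the log2 scale, the marginal zone list overlapped. There cMyc+early library 3 stood at -0.44 and cMyc+prePB library 1 at 0.17. The CD38low CD95+ GC gate is meant to exclude naive and marginal zone B cells, and the part of such cells in these levels was not tested.

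Genes of position and adhesion were split evenly in direction. Of 22 genes, 1 fell, 11 were above 0 and 11 below, and the median was -0.018 (-0.27 without cMyc+early library 3 to 0.0065 without cMyc+early library 1). The mean of their centered log2 levels was nonetheless lower in every cMyc+prePB library (-0.47 to -0.30) than in any cMyc+early library (0.041 to 0.63). Ccr6, the receptor of CCL20 found on memory precursors, was at 254 ± 34.6 against 1032 ± 450.2 (log2 fold change -1.93, adjusted p = 0.153), with no overlap. Of 29 BCR signaling genes, Cr2 fell and 21 were below 0 (48.8% of all genes were). The median was -0.29 (-0.39 to -0.063 without cMyc+prePB library 1). Lyn, the kinase that phosphorylates the BCR and its inhibitory coreceptors, was at 2622 ± 668 against 3718 ± 549.8 (log2 fold change -0.52, adjusted p = 0.446). Of 22 GC B cell factors none passed and the median was -0.13 (-0.27 without cMyc+prePB library 1 to -0.022 without cMyc+early library 1). Mef2c was at 17579.7 ± 3303 against 26588 ± 1826 (log2 fold change -0.61, adjusted p = 0.159) and Ets1 at 9746 ± 1346 against 15389.6 ± 3038 (log2 fold change -0.65, adjusted p = 0.311), with lower values in every cMyc+prePB library. The light zone list, with 15 genes, had a median of 0.029 (-0.095 without cMyc+early library 4 to 0.11 without cMyc+early library 2), and the dark zone list, with 12, of -0.25 (-0.38 without cMyc+prePB library 4 to -0.13 without cMyc+early library 4). Nfkbia, a light zone gene and feedback inhibitor of NF-kB, was at 12198 ± 1439 against 8356 ± 1330.0 (log2 fold change 0.55, adjusted p = 0.313).

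Cell division genes had log2 fold changes below 0 nearly throughout. Of 61 mitotic spindle and division genes none passed, 56 had log2 fold changes below 0 (48.8% of all genes did), 20 had an unadjusted p under 0.05 in that direction (4.77% of all genes) and 1 in the other. The median was -0.32 (-0.41 to -0.25). Cenpe, a kinesin of the kinetochore, was at 3369, 4091, 3145 and 3403 in cMyc+prePB and 5872, 4224, 6443 and 6098 in cMyc+early (log2 fold change -0.68 ± 0.17 (SE), adjusted p = 0.17). Nusap1, a spindle-associated protein, was at 4966 ± 587 against 7507 ± 643 (log2 fold change -0.60, adjusted p = 0.171), and Hmmr at 1912 ± 856 against 3542 ± 783 (log2 fold change -0.96, adjusted p = 0.325). Every cMyc+prePB library was below every cMyc+early library for Cenpe and Nusap1, and Hmmr overlapped. DNA replication genes did not share this direction. Of 44, none passed and 30 were above 0 (51.2% of all genes were). The median was 0.06 (0.031 without cMyc+prePB library 3 to 0.13 without cMyc+early library 4). Pole2 was at 1916 ± 466 against 1309 ± 249.5 (log2 fold change 0.54, adjusted p = 0.554) and Tk1 at 2637 ± 549.6 against 3434 ± 578 (log2 fold change -0.39, adjusted p = 0.578). Among 20 G1 cyclins, CDKs and inhibitors the median was -0.079 (-0.16 without cMyc+prePB library 3 to -0.0035 without cMyc+early library 2), with Ccnd2 at 11012 ± 3216 against 6128 ± 1242 (log2 fold change 0.81, adjusted p = 0.227) and Rb1 at 138 ± 54.8 against 433 ± 334 (log2 fold change -1.48, adjusted p = 0.361), where cMyc+early library 1 alone reached 933.

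Genes of ribosomes and growth metabolism had small log2 fold changes above 0, none past the test. Over all genes tested, 51.2% were above 0, and 3.81% were higher and 4.77% lower at an unadjusted p under 0.05. Of 83 cytosolic ribosomal protein genes 80 were above 0, 15 had an unadjusted p under 0.05 in that direction and 0 in the other, and the median was 0.29 (0.18 without cMyc+early library 4 to 0.37). Rpl18 was at 10006 ± 1299 against 7654 ± 583 (log2 fold change 0.38, adjusted p = 0.455). Of 40 ribosome biogenesis genes 37 were above 0, with a median of 0.22 (0.14 without cMyc+early library 1 to 0.29), and Nop56, a core protein of the nucleolar particles that modify ribosomal RNA, was at 17422 ± 2327 against 13564 ± 1073 (log2 fold change 0.35, adjusted p = 0.447). Among 27 nucleotide, one-carbon and polyamine genes 20 were above 0, with a median of 0.16 (0.033 without cMyc+early library 1 to 0.20), and among 20 glycolysis genes 17, with a median of 0.25 (0.043 without cMyc+early library 1 to 0.48 without cMyc+prePB library 1). Pfkp, a phosphofructokinase gene, was at 4209 ± 322 against 2616 ± 661 (log2 fold change 0.72, adjusted p = 0.223), with no overlap. In the MYC network, 12 genes had a median of 0.25 (0.19 to 0.48 without cMyc+early library 2) and none passed. Mxd3, a partner of MAX that represses, was at 587 ± 247 against 1013 ± 238 (log2 fold change -0.83, adjusted p = 0.328). Library 1 had the lowest mean level of its group for ribosome biogenesis, glycolysis and MYC network genes in both groups. Without library 1 of both groups the medians were 0.21, 0.33 and 0.39, a comparison chosen after the data were seen.

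**Figure D4:**
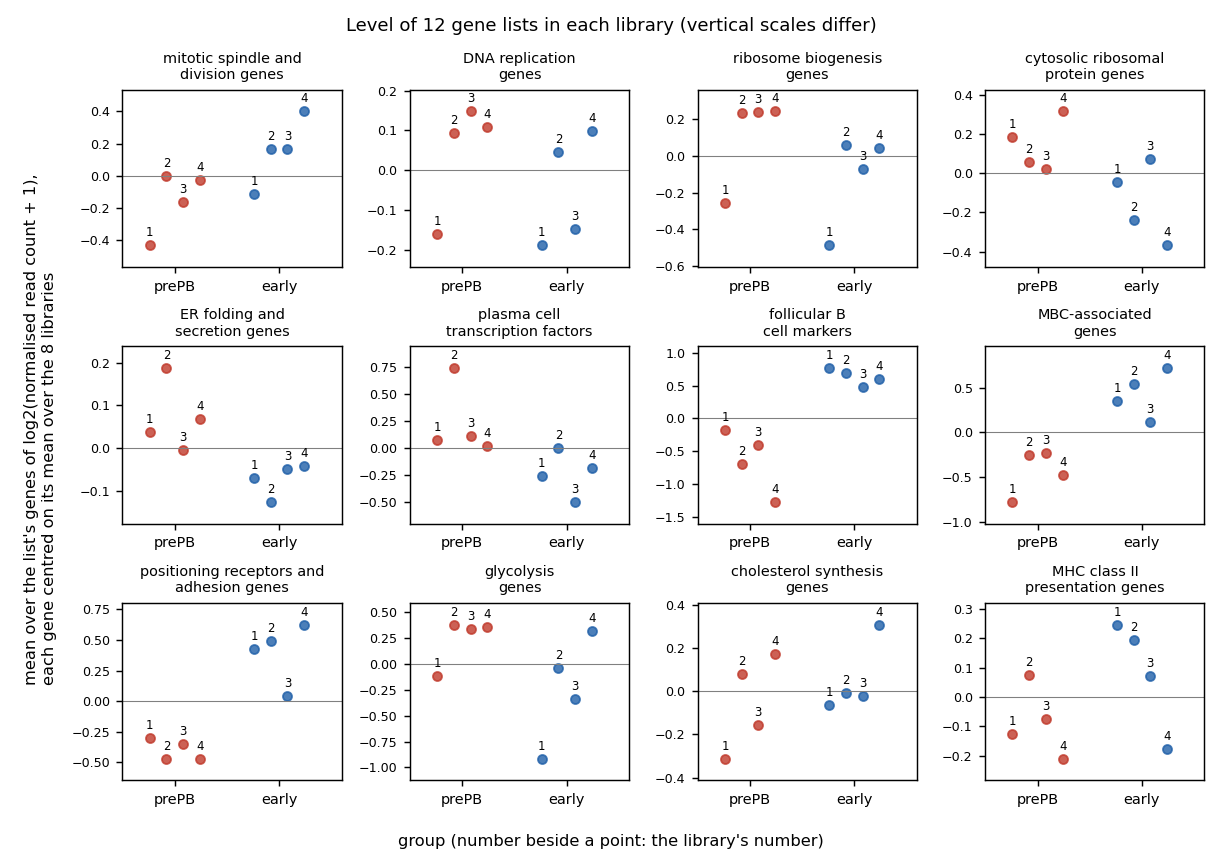
Mean over each list of log2(normalized count + 1), each gene centered on its mean over the 8 libraries, by group and library number for 12 lists with vertical scales of their own. The groups did not overlap for MBC-associated, follicular B cell and positioning genes, where all cMyc+prePB libraries were lower, or for ER folding genes and plasma cell transcription factors, where all were higher. The lists that were lower share genes, such as Pecam1, Ccr6 and S1pr1 in the MBC-associated and positioning lists. Low genes with large log2 fold changes, such as S1pr4, weigh heavily in the positioning mean. For mitotic genes cMyc+early library 1 lay within the cMyc+prePB range.

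Among signaling factors, Batf stood just outside the threshold. Batf, an AP-1 partner of IRF4 needed for class switching, was at 4969, 5517, 6524 and 6937 in cMyc+prePB and 2761, 3372, 4376 and 2564 in cMyc+early (log2 fold change 0.89 ± 0.18 (SE), adjusted p = 0.0519). It shared this adjusted p with Gm13496 and Gnaz, the first genes not to pass, while Lpcat2, the last to pass, had 0.0468. The other 12 AP-1, BATF and IRF partner genes tested did not pass either, and the median of the list was 0.011 (0.014 to 0.26 without cMyc+prePB library 1). Id3, an inhibitor of E proteins, was at 1672, 1359.6, 1679 and 1079 in cMyc+prePB and 3676, 3296, 3407 and 1875 in cMyc+early (log2 fold change -1.06 ± 0.27 (SE), adjusted p = 0.169), and Id2, its relative, at 989.8, 1565, 893 and 1103 in cMyc+prePB and 577, 459, 773 and 616 in cMyc+early (log2 fold change 0.90 ± 0.25 (SE), adjusted p = 0.227). These paralogs lay in opposite directions, each without overlap and neither past the test. Socs2, a feedback inhibitor of STAT5 signaling, was at 130.04, 269.6, 351 and 242 in cMyc+prePB and 0, 8.85, 122 and 48.8 in cMyc+early (log2 fold change 3.90 ± 1.12 (SE), adjusted p = 0.243), and Stat5a at 1308 ± 238 against 781 ± 126 (log2 fold change 0.74, adjusted p = 0.384). Among 19 SOCS and cytokine signaling genes 4 had an unadjusted p under 0.05, all higher (3.81% of all genes were). The median was 0.16 (0.015 without cMyc+prePB library 2 to 0.25 without cMyc+early library 4). Of 28 NF-kB genes none passed and the median was 0.102 (0.0006 without cMyc+early library 3 to 0.25 without cMyc+prePB library 1), with Nfkbid at 171 ± 98.5 against 319 ± 65.8 (log2 fold change -1.03, adjusted p = 0.403).

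**Figure D5:**
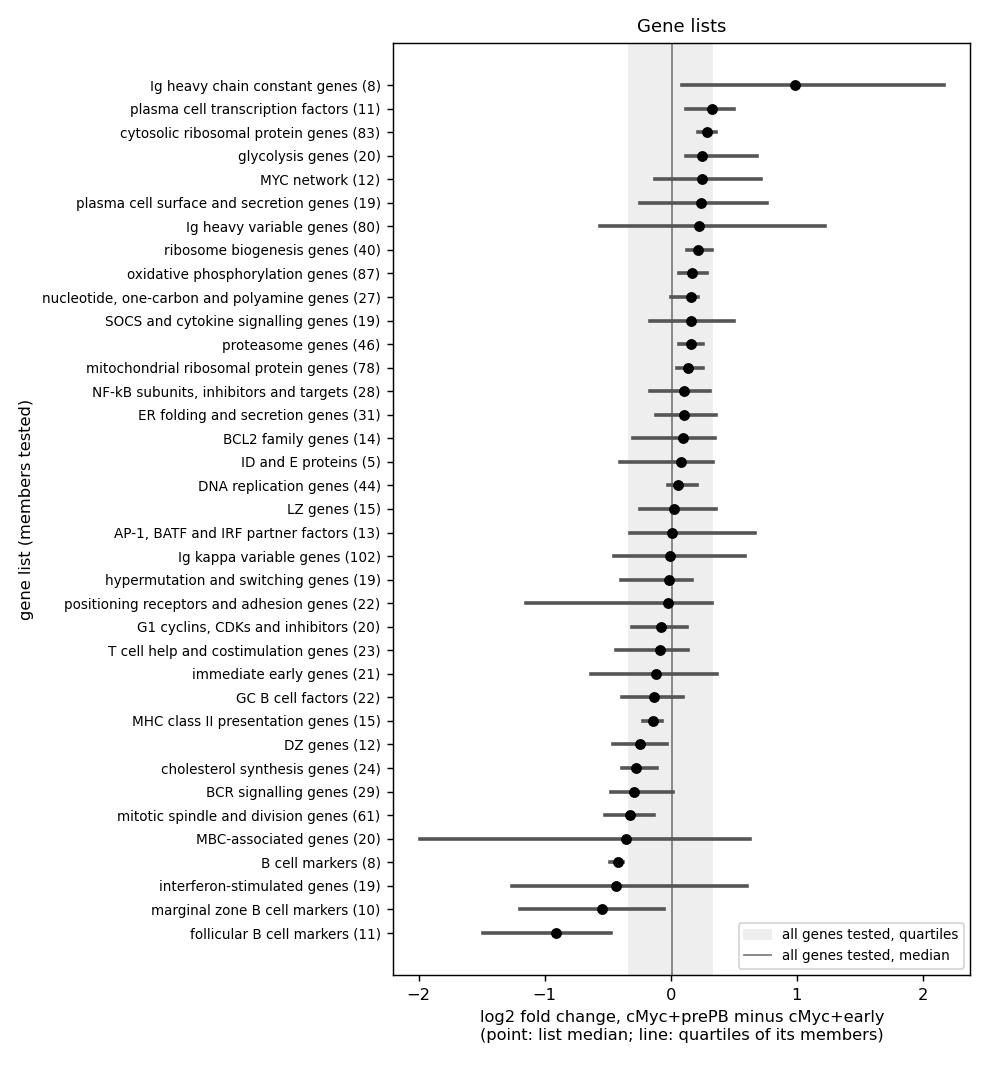
Median (point) and quartiles (line) of the log2 fold change of cMyc+prePB over cMyc+early in 37 gene lists, with the number of genes tested in parentheses and the median and quartiles of all genes in gray. The lists reach from -0.91 for follicular B cell markers to 0.98 for heavy chain constant genes, and most medians lie within the quartiles of all genes.

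Markers of other cell types were counted beside these results. The summed level of 18 T cell markers was 6834 to 8999 in cMyc+prePB and 4896 to 5835 in cMyc+early, so the groups did not overlap. Of the 9 markers tested none passed and 7 were above 0 (51.2% of all genes were). The median was 1.23 (0.77 without cMyc+prePB library 4 to 1.72). Most of the sum came from Lck (4389 to 6839 in cMyc+prePB and 2157 to 3848 in cMyc+early, adjusted p = 0.0989), which some B cells also express, and from Cd2 (1208 to 2056 in cMyc+prePB and 1582 to 3188 in cMyc+early). Pdcd1, the gene of the inhibitory receptor PD-1, was at 4.30, 143, 233 and 482 in cMyc+prePB and 1.05, 0, 1.92 and 24.4 in cMyc+early, with cMyc+prePB library 1 within the cMyc+early range. Of the defining markers, Cd3d reached 23.2 and 73.9 in cMyc+prePB libraries 2 and 4 and at most 7.08 in cMyc+early. Cd3g was at 48.8 in cMyc+prePB library 2 and 30.8 in cMyc+early library 3. Cd8a reached 66.2 in cMyc+prePB library 2 and Icos 50.5 in cMyc+prePB library 1. Thy1 was at 0, 95.1, 15.3 and 96.5 in cMyc+prePB and 1.05, 46.0, 0.96 and 84.9 in cMyc+early. Lat was at 5.37, 213, 73.9 and 218 in cMyc+prePB and 173, 137, 180 and 173 in cMyc+early. Cd40lg was at 32.2, 0, 0 and 0 in cMyc+prePB and 0, 14.2, 27.9 and 3.61 in cMyc+early. Zap70 was at 47.3, 25.6, 0 and 48.7 in cMyc+prePB and 0, 0, 0.96 and 60.5 in cMyc+early. Cd4 and Cd8b1 were at 0 in all cMyc+prePB libraries, and Bcl11b, Cd28, Cd3e, Cd8b1, Icos and Il21 were at 0 in all cMyc+early libraries. Cd3e was at 0, 0.83, 0 and 30.7 in the cMyc+prePB libraries. CD43 depletion and the GC B cell gate, stated as B220+ for cMyc+prePB, are meant to remove T cells. The part of T cell transcripts in the levels of Il10 or Tnfsf9 was not tested. Summed markers of NK cells and plasmacytoid dendritic cells were 15.3 to 76.6 in cMyc+prePB and 0 to 135 in cMyc+early. Nkg7, a granule gene of this list, was at 44.1, 38.0, 15.3 and 47.8 in cMyc+prePB and 0, 0, 0 and 0.903 in cMyc+early (log2 fold change 4.87 ± 1.199 (SE), adjusted p = 0.147), with no overlap. Summed stromal and follicular dendritic cell markers were 4050 to 5184 in cMyc+prePB and 3677 to 4718 in cMyc+early. Of these 13 markers, 6 were at 0 in all 8 libraries, Cxcl13, Pdgfra and Pdpn among them, and the other members made up the sums. Summed macrophage and granulocyte markers were 318 to 1048 in cMyc+prePB and 259 to 473 in cMyc+early, and summed erythroid and platelet markers 234 to 3181 and 552 to 2503, both overlapping. Of 17 macrophage and granulocyte markers, 10 were at 0 in all cMyc+prePB libraries and 9 in all cMyc+early libraries. Itgam, Ly6g, S100a8 and S100a9 were at 0 in all 8 libraries, and other members made up the sums. The part of such cells in the libraries was not tested.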

How the data were processed

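RNA of sorted cMyc+ GC B cells was sequenced, with 4 libraries for each of 4 subpopulations. The authors deposited 1 signal per gene and library, a gene count scaled by the size factor of its library. The submitters' processing notes name Trimmomatic 0.36, STAR 2.5.2a, RSEM 1.2.31, DESeq2 1.20.0 and R 3.5.1 with GRCm38, and coordinates were taken from GENCODE M21. Every value was a whole multiple of what 1 read is worth (100% within 1e-06 of a read), so reads were recovered, probably rounded expected counts. No column was left unused.

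The 12505 genes whose signal averaged 10 or more were tested as log2(value + 1) with limma 3.58.1 (R 4.3.3, trended prior, Benjamini-Hochberg adjustment) over all 16 libraries, since the methods text used here gives no test between these groups. The edgeR 4.0.16 quasi-likelihood test on recovered reads called 4 higher and 4 lower genes, and DESeq2 1.42.0 was also run. Other alternatives were pseudocounts of 0.5 and 5, a minimum mean of 50 or none, rescaling to equal totals, quantile normalization, an untrended prior, the library number as a replicate block, a model of the 8 libraries alone, and leaving out each library. The tests were tried on simulated counts. Text names the genes that passed except 1 that is not reported here, the sorted markers and up to 3 genes per list by smallest p. The comparison and all lists were chosen with earlier results of these data known. Intervals and floors cover counting error only.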

Additional observations from a re-analysis of the deposited data

Results flagged for a closer look

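For each of 121 named genes and each group of 4 libraries, the lowest or highest library was set against the others by Dixon's ratio at its 95% critical value, and 14 of 242 groups held a library that far from the rest. Chance flags about 1 in 20 groups, close to this share. Among the genes that passed, C230085N15Rik stood at 3.61 normalized counts in cMyc+prePB library 3, against 49.4 to 67 in the others. In cMyc+prePB library 1, Myc stood at 2300 (others 4160 to 4420), Ldha at 12000 (others 21900 to 24500) and Cxcr4 at 248 (others 118 to 130). In cMyc+prePB library 4, Ets1 stood at 7750 (others 10200 to 10600) and Zbtb20 at 2610 (others 4240 to 4630), and in library 2 Tk1 stood at 1820 (others 2870 to 2990). In cMyc+early library 1, Ccnd2 stood at 4280 (others 6610 to 6960) and Rb1 at 933 (others 236 to 296). In cMyc+early library 3, Cxcr4 stood at 109 (others 72.2 to 72.6) and Nhp2 at 12200 (others 7850 to 8430). In cMyc+early library 4, Mxd3 stood at 664 (others 1090 to 1200), Id3 at 1880 (others 3300 to 3680) and Bst2 at 289 (others 454 to 478).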

How the results depend on the processing

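The counts of genes that passed, 9 higher and 15 lower, stayed within 1.5 times under pseudocounts of 0.5 and 5, a mean of at least 50, the same total and quantile normalization (8 to 11 higher, 11 to 17 lower). They were 2 and 2 with no filter on low values, 5 and 7 with no trend, 4 and 4 in edgeR, 61 and 70 in DESeq2, and 0 and 0 with only the 8 libraries, where limma still had 400 higher and 504 lower genes at an unadjusted p under 0.05. Leaving out 1 library gave 3 to 10 higher and 0 to 16 lower genes, and leaving out library 1 of both groups, chosen after the data were seen, gave 2 and 2. The cause of these shifts was not tested. All 24 genes kept their direction under every alternative in which they were tested. Neither Cd69 nor Fas passed, and their log2 fold changes of 0.15 and -0.104 turned sign when a library was left out. Cd69 ran from -0.085 (without cMyc+prePB library 1) to 0.355, and Fas from -0.231 to 0.069 (without cMyc+early library 1), with 0.022 without library 1 of both groups. Rescaling moved the median of all genes by 0.0287 at most, which changed the sign of the near-zero medians of positioning, hypermutation and kappa variable genes.

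The library numbers were not taken as pairs. Deviations from the group means correlated at 0.174, 0.0329, -0.0471 and 0.101 for numbers 1 to 4 over the 12505 genes, and at 0.701, 0.265, -0.275 and 0.39 among the 3651 that averaged 1000 or more. Number 3 stayed below 0 in both sets, and only numbers 1 and 4 correlated best with their own number. With the number as a replicate block, limma gave 28 higher and 37 lower genes, which included all 24, edgeR 23 and 31, and limma with only the 8 libraries 5 and 8. Genes that passed only with the block in limma included Ighg2c, Itm2c, Apoe and Gstt1 (higher) and Hbb-bh1, 1700048O20Rik, Mndal and Btg1 (lower). Of the genes given above as not past the test, Id3 (adjusted p = 0.00489), Lck (0.0141), Ccnd2 (0.022), Pecam1 (0.0257), Igkv2-137 (0.0263), Igkv1-110 (0.027), Batf (0.027), Ccr6 (0.0314) and Gnaz (0.0344) passed with the block as well.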

Other observations

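Cholesterol synthesis genes mostly had log2 fold changes below 0. Over all genes tested, 51.2% were above 0 and 48.8% below. Of 24 genes none passed in limma, 20 had log2 fold changes below 0, and the median was -0.27 (-0.32 to -0.13 without cMyc+prePB library 1). Hmgcs1, which makes the precursor of mevalonate, was at 3097 ± 413 against 4266 ± 731 (log2 fold change -0.46, adjusted p = 0.451), with every cMyc+prePB library lower. The list's mean level overlapped between the groups. MHC class II presentation genes had 13 of 15 genes below 0 and a median of -0.14 (-0.25 without cMyc+early library 4 to -0.082 without cMyc+early library 1). Cd74, the invariant chain and among the most abundant transcripts, was at 686657 ± 111839 against 918909 ± 174216 (log2 fold change -0.42, adjusted p = 0.616). Mitochondrial genes had the opposite sign, with 78 of 87 oxidative phosphorylation genes and 66 of 78 mitochondrial ribosomal protein genes above 0. Their medians were 0.17 (0.05 without cMyc+early library 4 to 0.24) and 0.13 (0.076 without cMyc+early library 4 to 0.21 without cMyc+early library 3). Mrpl52, of the large mitochondrial ribosomal subunit, was at 1057 ± 28.7 against 663 ± 49.99 (log2 fold change 0.67, adjusted p = 0.194), with no overlap. Of 46 proteasome genes 44 were above 0, with a median of 0.16 (0.12 to 0.22). The immunoproteasome subunit gene Psmb9 was at 5389 ± 1437 against 3859 ± 546 (log2 fold change 0.46, adjusted p = 0.43).

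Interferon-stimulated genes varied widely between libraries of one group. Of 19 genes none passed and 8 were above 0 (51.2% of all genes were). The list's mean level, centered per gene on the log2 scale, ran from -1.18 in cMyc+prePB library 3 to 0.90 in cMyc+prePB library 2. Bst2 was at 741 ± 186 against 425 ± 91.3 (log2 fold change 0.80, adjusted p = 0.368). None of 14 BCL2 family genes passed, with the death agonist gene Bid at 8967 ± 534 against 11631 ± 873 (log2 fold change -0.37, adjusted p = 0.306) and no overlap between the groups. Nor did any of 19 hypermutation and switching genes, with the DNA damage kinase gene Atm at 904 ± 127 against 613 ± 195 (log2 fold change 0.60, adjusted p = 0.486), or any of 21 immediate early genes, with Klf6 at 432 ± 149.9 against 778 ± 155 (log2 fold change -0.90, adjusted p = 0.412).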
